A study of Homo sapiens with 40 samples.

Results

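The chromatin of the trastuzumab-resistant line BT474R was compared with that of its trastuzumab-sensitive parent BT474 in the untreated state, before any ligand was added. The peak lists of the 2 BT474R and 2 BT474 baseline libraries, out of 40 libraries in the series, were merged on chromosomes 1 to 22 and X wherever peaks overlapped by 1 bp or more, which gave 61888 merged regions. A region was called open in a library when that library's list held a peak in it. Of the merged regions, 6434 were open in 2 of 2 BT474R and 0 of 2 BT474 libraries (BT474R-only regions) and 6342 were open in 2 of 2 BT474 and 0 of 2 BT474R libraries (BT474-only regions). These members make up 10.4% and 10.2% of the merged regions. Their presence at baseline is the rule that chose them, and it is given as a description without a test.

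BT474 is an established line from a breast ductal carcinoma that overexpresses the receptor tyrosine kinase HER2. BT474R descends from BT474 clone 5, which was grown in trastuzumab, an antibody against HER2, so that it stands for a single resistant clone. Both lines were serum-starved and collected untreated, and the other 36 libraries came from the same lines after vehicle (control), epidermal growth factor (EGF) or heregulin (HRG) for 1, 12 or 24 h, with 2 replicates per line, treatment and time. Accessibility was measured by ATAC-seq, in which the Tn5 transposase inserts sequencing adapters into DNA that nucleosomes leave free. Strength was read from the deposited peak score, the area under the signal curve, as its rank percentile within the library's own list (100 is the strongest peak), because scores of separate lists are not on a common scale.

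HER2, the product of ERBB2, has no known ligand of its own and signals in pairs with EGFR, HER3 (ERBB3) or HER4 (ERBB4), which bind EGF-type ligands or heregulins. These receptors feed the RAS-MAPK and PI3K-AKT pathways, whose feedback inhibitors include the DUSP phosphatases and the Sprouty proteins. Luminal breast cells carry open regions set by lineage factors such as GATA3, FOXA1, TFAP2C and, where present, the estrogen receptor, while AP-1, the dimer of FOS and JUN family proteins, binds enhancers that open after growth factor signals.

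Printed below are 3 high-ranked regions outside promoters of each kind and the highest-ranked BT474R-only promoter region. The 3 of each kind were chosen with part of the genome left out, so they need not be the highest-ranked of all. All windows are given as they stand on the forward strand of hg38, with 100 bases on either side of the summit. Those of EGFR, ERBB3 and ERBB4 were added after their values were seen, because these receptors are the partners of HER2. Capitals mark matches to 1 of the 20 short motifs searched on both strands, and a window without capitals holds none of these letters. The BT474R-only regions are these.
DIP2C (start of a non-coding transcript inside the gene), chr10:436513-436713: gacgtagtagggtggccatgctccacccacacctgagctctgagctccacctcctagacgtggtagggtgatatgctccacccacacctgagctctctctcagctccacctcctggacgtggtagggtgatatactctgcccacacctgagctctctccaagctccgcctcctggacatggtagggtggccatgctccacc
ARHGEF4 (intergenic), chr2:130828094-130828294: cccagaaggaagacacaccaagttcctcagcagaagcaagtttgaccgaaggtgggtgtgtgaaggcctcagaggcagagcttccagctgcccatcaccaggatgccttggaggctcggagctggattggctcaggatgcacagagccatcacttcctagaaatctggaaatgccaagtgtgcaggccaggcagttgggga
GPR179 (exon), chr17:38324923-38325123: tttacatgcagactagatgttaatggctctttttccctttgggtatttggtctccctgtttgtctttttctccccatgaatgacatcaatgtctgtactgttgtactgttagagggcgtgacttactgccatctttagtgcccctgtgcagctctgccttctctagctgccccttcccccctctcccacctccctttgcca
POU2F2 (in an exon of the neighbouring DEDD2), chr19:42199564-42199764: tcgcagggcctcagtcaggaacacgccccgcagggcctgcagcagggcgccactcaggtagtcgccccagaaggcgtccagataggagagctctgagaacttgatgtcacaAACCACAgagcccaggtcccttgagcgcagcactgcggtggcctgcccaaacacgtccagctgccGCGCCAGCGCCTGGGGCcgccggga
EGFR (intron), chr7:55130061-55130261: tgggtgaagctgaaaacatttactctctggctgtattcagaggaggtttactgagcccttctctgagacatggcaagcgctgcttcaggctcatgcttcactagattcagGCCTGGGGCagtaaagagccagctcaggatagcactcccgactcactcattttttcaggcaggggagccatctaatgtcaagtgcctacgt
ERBB3 (promoter), chr12:56082016-56082216: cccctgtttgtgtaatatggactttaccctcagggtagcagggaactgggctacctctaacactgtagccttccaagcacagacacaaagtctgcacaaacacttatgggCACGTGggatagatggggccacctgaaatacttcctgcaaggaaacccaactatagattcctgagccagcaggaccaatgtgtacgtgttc
The DIP2C window repeats itself, since its letters match at 69.0% of positions when shifted by 59 bases, whereas no other printed window passes 43.7% at any shift from 10 to 100 bases.

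The BT474-only regions are these, shown for the same reason.
IGFBP2 (intergenic), chr2:216671086-216671286: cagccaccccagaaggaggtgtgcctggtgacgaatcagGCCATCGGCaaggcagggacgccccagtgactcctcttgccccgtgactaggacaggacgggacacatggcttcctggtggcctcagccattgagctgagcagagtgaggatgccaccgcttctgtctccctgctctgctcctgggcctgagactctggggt
TSHZ2 (intron), chr20:53336984-53337184: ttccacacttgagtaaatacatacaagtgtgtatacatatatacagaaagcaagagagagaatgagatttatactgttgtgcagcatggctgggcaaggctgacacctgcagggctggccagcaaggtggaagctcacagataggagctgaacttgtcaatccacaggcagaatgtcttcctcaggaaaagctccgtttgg
MGAT4C (intron), chr12:86265095-86265295: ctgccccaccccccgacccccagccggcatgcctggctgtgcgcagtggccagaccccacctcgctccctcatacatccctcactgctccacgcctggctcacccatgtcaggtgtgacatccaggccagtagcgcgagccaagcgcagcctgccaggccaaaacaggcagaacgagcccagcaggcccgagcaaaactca
ERBB4 (promoter), chr2:212537823-212538023: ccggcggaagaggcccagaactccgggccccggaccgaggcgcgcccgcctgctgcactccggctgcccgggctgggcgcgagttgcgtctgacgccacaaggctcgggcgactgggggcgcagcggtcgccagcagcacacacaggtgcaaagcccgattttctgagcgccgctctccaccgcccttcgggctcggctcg
The named gene is the one with the nearest protein-coding transcript start within 100 kb, which is a label of position and no evidence that the region controls it.

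The 4 baseline lists were not of equal length. BT474R replicates held 53007 and 44546 peaks over 35.2 and 26.1 Mb, and BT474 replicates held 49997 and 47785 peaks over 34.0 and 31.4 Mb. BT474R replicate 2 stood apart from its partner, with 71.7% of their combined bases shared, against 84.8% for the BT474 pair and 58.6% to 66.4% for the pairs across lines. A count by a single BT474R replicate therefore changed the number of members: without BT474R replicate 2 the BT474R-only regions numbered 11098, and without BT474R replicate 1 the BT474-only regions numbered 10922. All 12 luminal markers had a promoter peak in each of the 4 libraries, among them KRT8, KRT18, GATA3, FOXA1 and ELF3, and promoter peaks of other cell types were not all absent. Of 5 basal markers, TP63 and CDH3 had a promoter peak in all 4 libraries and KRT5, KRT14 and KRT17 in none. Of 8 immune markers 1 to 2 had one in a library, CORO1A in all 4, with PTPRC, CD3E and CD3D in none. Of 8 fibroblast or mesenchymal markers 2 to 3 had one, with COL1A2, COL3A1, DCN, LUM and PDGFRB in none, and of 5 endothelial markers CDH5, VWF and KDR had one in all 4 libraries and PECAM1 and TEK in none.

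**Figure D1:**
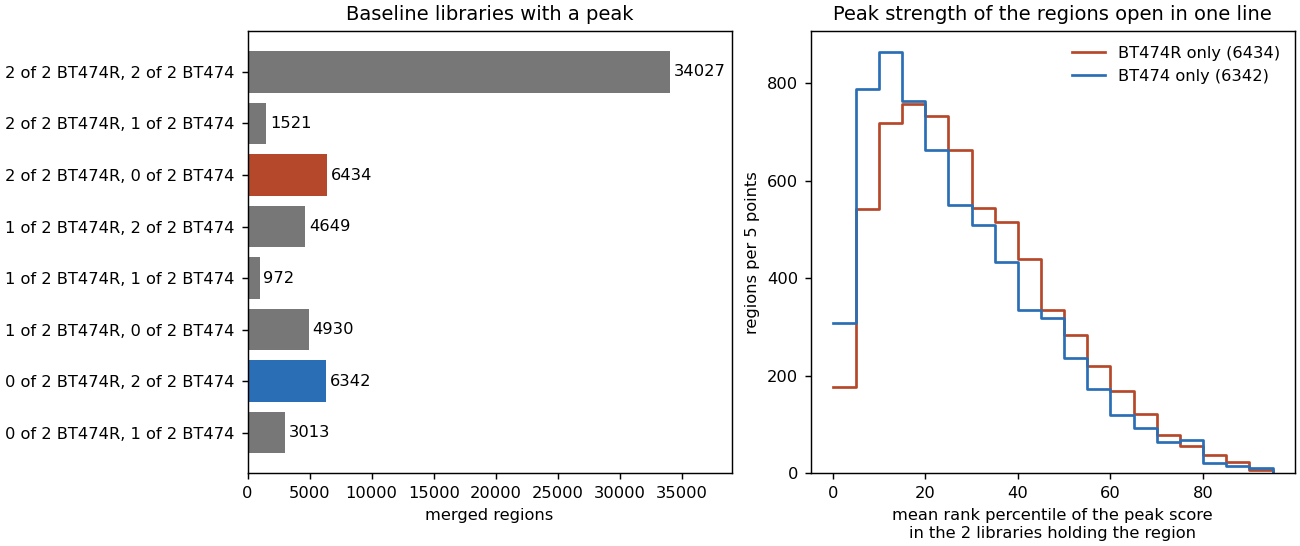
Left, merged regions by the number of BT474R and BT474 baseline libraries that held a peak; right, the number of members per 5 points of mean rank percentile of the peak score over the 2 libraries holding them. Members in either direction are far fewer than the 34027 regions open in all 4 libraries, and most lie in the lower part of the ranking.

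Members were mostly weak peaks. The median rank percentile of BT474R-only regions was 32.6 in BT474R replicate 1 and 22.7 in replicate 2, and that of BT474-only regions was 25.6 and 21.8 in the BT474 replicates, whereas regions open in all 4 libraries had a median mean rank of 61.7. A mean rank of 50 or more was reached by 1002 (15.6%) of the BT474R-only and 800 (12.6%) of the BT474-only regions. Regions just outside the rule were weaker still: the 4930 regions open in 1 of 2 BT474R and 0 of 2 BT474 libraries had a median rank of 9.54, and the 3013 regions of the opposite kind had 6.06. On the other side of the rule, 1521 regions open in 2 of 2 BT474R and 1 of 2 BT474 libraries had a median of 23.4, and 4649 regions open in 1 of 2 BT474R and 2 of 2 BT474 libraries had 25.7.

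BT474R-only regions lay away from promoters. Of them, 791 (12.3%) fell within 1 kb of an annotated transcript start, against 1427 (22.5%) of the BT474-only regions and 43.7% of the regions open in all 4 libraries. Introns held 52.9% and 46.2% of the members, and intergenic DNA held 30.6% and 27.8%. The median distance to a protein-coding start was 19.8 kb for BT474R-only and 16.3 kb for BT474-only regions, against 9.09 kb over all merged regions. The order of the promoter shares was the same among strong members: at a mean rank of 75 or more, 27.3% of 128 BT474R-only and 37.3% of 118 BT474-only regions were promoters.

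Among the strongest BT474R-only regions was the DIP2C region (chr10:436068-437584), with rank percentiles of 99.4 and 99.7 in the BT474R replicates. In the later libraries it was open in 18 of 18 BT474R and 8 of 18 BT474 libraries. A promoter of LMTK3, a membrane-anchored kinase (chr19:48501322-48502767), ranked at 95.8 and 96.4 and was open later in 18 and 2 libraries. The regions at TEX14, ARHGEF4 and POU2F2 were open later in every BT474R and in no BT474 library. Not all strong baseline differences held: the region nearest to TMEM63B (chr6:44076170-44077660), ranked at 93.1 and 91.4, was open in 18 of 18 later libraries of both lines.

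The strongest BT474-only region was the promoter of MAP1LC3A, a gene of autophagosome formation (chr20:34557971-34560586), with rank percentiles of 98.5 and 98.5 in the BT474 replicates and no peak in BT474R. It was open in 18 of 18 later BT474 libraries and in 0 of 18 BT474R libraries. A region 10.2 kb from IGFBP2, which encodes a binding protein of insulin-like growth factors, ranked at 96.9 and 96.6 and was open later in 18 BT474 and 1 BT474R library. The PRRT3 promoter, an intronic region of MGAT4C and a region 41.0 kb from MIPEP were open later in every BT474 library and in no BT474R library. An intronic region of BCL2, the inhibitor of apoptosis (ranks 91.1 and 91.0), showed the same split of 18 and 0. At the KRT8-KRT18 keratin locus the region chr12:52945194-52947599 ranked at 95.6 and 88.8 in BT474 and was without a peak in both BT474R baseline libraries, yet 13 of 18 later BT474R libraries held a peak there.

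The receptor genes held BT474R-only regions in clusters. Of the 32 merged regions of the 4 ERBB receptor genes, 11 (34.4%) were BT474R-only and 4 (12.5%) BT474-only, against 10.4% and 10.2% of all merged regions. EGFR alone had 8 BT474R-only regions among its 19, and 6 of them followed each other without a break over 149 kb (chr7:55030876-55180185) and no run of BT474R-only regions held more than 6, a number that 4 runs reached. The strongest, in an intron (chr7:55129450-55130319), ranked at 77.3 and 79.4 in BT474R. It was open in 18 of 18 later BT474R libraries and in 2 of 18 BT474 libraries, both of them EGF libraries (Fisher's exact test, adjusted p = 5.1e-07). Each of the 8 was open later in 16 to 18 BT474R and 0 to 7 BT474 libraries. The main EGFR promoter (chr7:55018555-55020483) was open in all 4 baseline libraries, at ranks of 97.4 and 94.9 in BT474R and 86.3 and 83.4 in BT474. The 5-Mb window of chromosome 7 that holds most of EGFR had 25% BT474R-only and 4.69% BT474-only among its 64 merged regions, while its regions open in all 4 libraries ranked a median of 2.61 points higher in BT474R.

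ERBB3, which encodes the heregulin receptor HER3, had 2 BT474R-only regions beside a promoter that was open at ranks of 96.6 to 98.5 in all 4 libraries. The stronger (chr12:56081828-56082344) ranked at 63.8 and 68.0 and was open later in 18 of 18 BT474R libraries. In BT474 it was open in 0 of 6 control, 4 of 6 EGF and 4 of 6 HRG libraries (adjusted p = 0.0017 between lines, Fisher's exact test). ERBB2 itself had a BT474R-only region at an internal promoter (chr17:39695022-39696283, ranks 40.04 and 60.9), but that region was open later in 18 BT474R and 15 BT474 libraries and did not pass Fisher's exact test (adjusted p = 0.53). The main ERBB2 promoter ranked at 99.7 or above in all 4 libraries. ERBB4 went the other way, with 3 BT474-only and 0 BT474R-only regions. Its 2 promoter regions ranked at 58.8 and 56.5 (chr2:212537312-212538151) and at 55.3 and 51.6 (chr2:212538625-212539491) in BT474. Both were open in 18 of 18 later BT474 libraries, and in 6 and 0 of 18 BT474R libraries respectively.

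**Figure D2:**
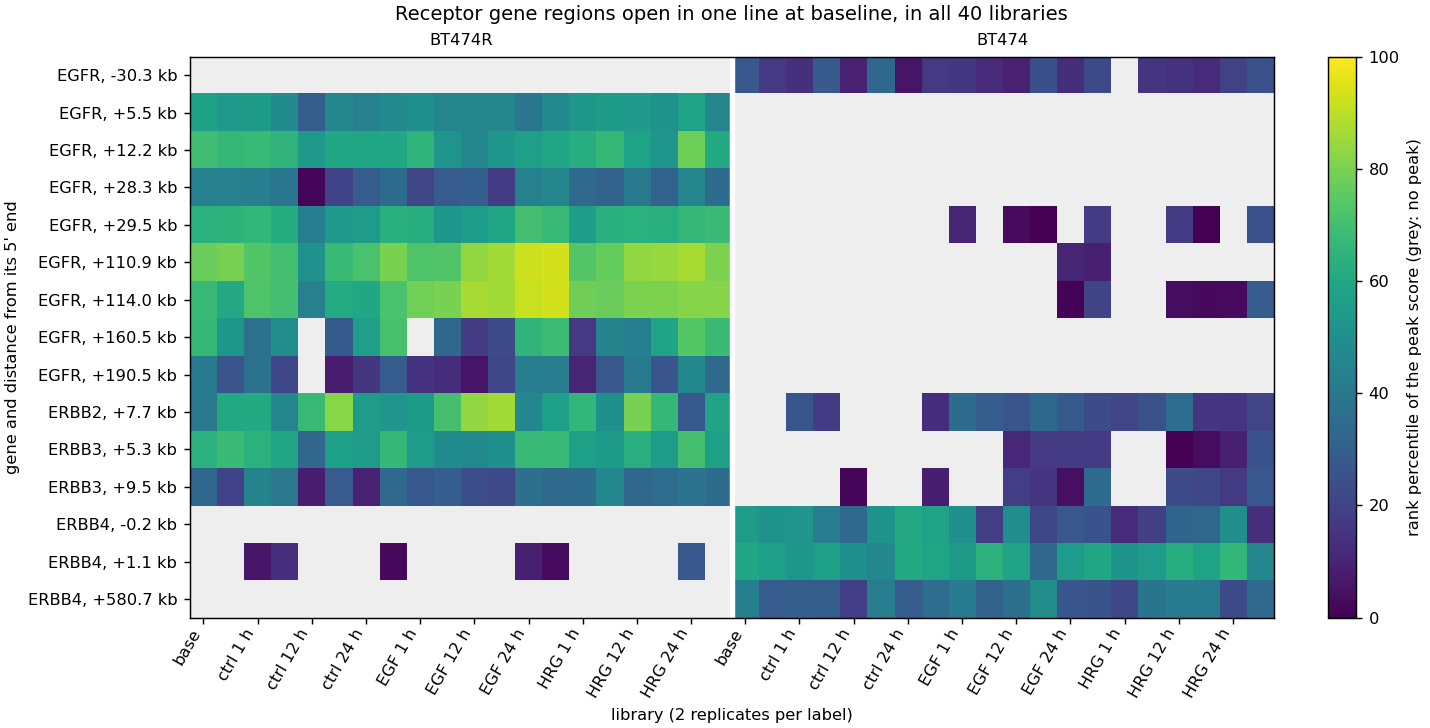
Rank percentile of the peak score (colour, grey for no peak) at each member region of the 4 ERBB receptor genes (rows, with the distance of the region from the gene's 5' end in kb) in all 40 libraries (columns, 2 replicates per label, BT474R left and BT474 right). The EGFR rows are filled on the BT474R side except the first, the ERBB4 rows on the BT474 side, and the stronger ERBB3 region has peaks in BT474 after EGF and HRG at 12 and 24 h but in none of its controls.

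Genes of RAS-MAPK signalling and its feedback held 27 BT474R-only regions (15.7%) and 4 BT474-only regions (2.33%) among 172. Of the 27, 20 were open more often in BT474R in the later libraries, against 71.5% of all BT474R-only regions. Feedback inhibitors with several BT474R-only regions were DUSP6 (5 of its 13 merged regions), DUSP4 (4 of 14), SPRED2 (4 of 31), SPRY4 (3 of 15) and DUSP10 (3 of 11). The region near SPRY4 (chr5:142341876-142342695) ranked at 79.9 and 80.3 and was open later in 18 BT474R and 1 BT474 library. A DUSP6 promoter region (chr12:89349843-89350432) ranked at 51.7 and 43.3 and was open later in 18 and 4 libraries, the 4 being 2 EGF and 2 HRG libraries.

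Hypoxia and glycolysis genes, taken as a list, had 34 BT474R-only (16.3%) and 6 BT474-only (2.88%) regions among 208, against 10.4% and 10.2% of all merged regions. The BT474R-only regions were spread unevenly over the genes. Most lay at EGLN3, a prolyl hydroxylase that marks hypoxia-inducible factors for degradation (11 of its 39 regions), and EPAS1, which encodes HIF-2α (8 of 21). VEGFA, SLC2A1 and HK2 had 3 each, and HIF1A, PKM and LDHA had none in either direction. EPAS1 had none that was BT474-only, and an alternative promoter within it (chr2:46335636-46336497) ranked at 70.6 and 59.1 and was open in 18 of 18 later BT474R and 0 of 18 BT474 libraries. Of the 34, 26 were open more often in BT474R later, against 71.5% of all BT474R-only regions.

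In PI3K-AKT-mTOR genes, 17 of 139 regions (12.2%) were BT474R-only and 8 (5.76%) BT474-only, with 5 at FOXO3 and 4 at PHLPP1, a phosphatase of AKT. A promoter of PIK3CD ranked at 33.2 and 17.2 in BT474R and was open later in 17 BT474R and 0 BT474 libraries. SGK1 and PHLPP2 each had 2 BT474-only regions.

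Lineage factors of luminal cells were split between the lines. Of their 179 regions, 23 (12.8%) were BT474-only and 14 (7.82%) BT474R-only, and 23 of the 23 and 8 of the 14 were separated in the same direction later, against 91.8% and 71.5% of all BT474-only and BT474R-only regions. BT474-only regions lay at TBX3 (6), GATA3 (4), PGR, EHF and TFAP2A (3 each), and TFAP2B, GRHL2, TRPS1 and ESR1 (1 each). An ESR1 promoter region (chr6:151803793-151804138) ranked at 36.8 and 26.6 in BT474 and was open later in 18 BT474 and 2 BT474R libraries. Of the 3 promoter regions of ESR1, 1 other was open in all 4 baseline libraries. A GATA3 promoter region (chr10:8045027-8045758) ranked at 17.5 and 17.2 and was open later in 17 and 0. BT474R-only regions lay at TFAP2C and XBP1 (4 each), ELF3 (3), and TFAP2B, GRHL1 and KLF5 (1 each). ELF3 is an epithelial ETS factor. Its BT474R-only promoter region (chr1:202011782-202014393) ranked at 88.4 and 50.4, and its other promoter region was open in all 4 baseline libraries. Steroid hormone targets had 14 members in each direction, 13.9% of their regions each. BCL2 and CA12 had 5 and 3 BT474-only regions, and both CA12 promoter regions were open in 18 of 18 later BT474 libraries and in no BT474R library. GREB1 had 2 in each direction.

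Genes of G1 cyclins, CDKs and CDK inhibitors had 9 BT474-only (14.8%) and 2 BT474R-only (3.28%) regions among 61, and the BT474-only ones lay both at cyclins (2 at CCND1 and 1 each at CCND2, CCNE1 and CCNE2) and at the inhibitors CDKN1A and CDKN2B (1 each). CDK6 had 2 BT474-only and 1 BT474R-only. Mucins and genes of HER2 shielding had 8 (18.2%) and 1 (2.27%) among 44. A MUC1 promoter region (chr1:155191920-155192682) ranked at 40.6 and 27.3 in BT474 and was open later in 18 BT474 and 2 BT474R libraries. The gene had 3 promoter regions, and 2 of them were open in all 4 baseline libraries. The 13 other lists ranged from 3.08% to 22.6% BT474R-only and from 6.67% to 15.8% BT474-only.

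Long stretches of consecutive BT474-only regions marked several genes. The longest held 12 regions over 447 kb at COL22A1 on chromosome 8, and the next held 10 over 1244 kb across ABCA13 and CDC14C on chromosome 7 and 9 over 628 kb at PTPRM, a receptor-type phosphatase gene on chromosome 18. In the later BT474R libraries none of the 12 COL22A1 or 9 PTPRM regions was open in any library, whereas at least 75% and 88.9% were open in every BT474 library. By count of regions, TSHZ2 led the BT474-only side with 14, all of which were open more often in BT474 later, as were 91.8% of all BT474-only regions. It was followed by COL22A1 (11), NEDD4L (10), AOPEP (10), PREX1, PTPRM and PTPRJ (9 each), and TTC7B, LPP and ZFHX3 (8 each). On the BT474R-only side AUTS2 led with 12 but also had 7 BT474-only regions, and others with many were EGLN3 (11), EGFR, SLC22A23 and EPAS1 (8 each), and FOXP4, MAD1L1 and ABTB3 (7 each). Of the other BT474R-only runs of 6 regions, one covered 177 kb on chromosome 5 and another 545 kb on chromosome 2, neither holding a protein-coding gene.

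Members were not spread evenly over the chromosomes. BT474R-only regions were 17.1% of the merged regions on chromosome 13, 15.9% on 21, 14.6% on 1 and 13.2% on 22, against 5.97% on 19 and 6.43% on 11. BT474-only regions were 15.4% on chromosome 3, 14.6% on 14 and 14.3% on 8, against 3.78% on 21 and 4.29% on 22. The ranks of regions open in all 4 libraries moved with these shares: their median difference, BT474R minus BT474, was 6.44 points on chromosome 21, 5.49 on 22 and 4.57 on 13, and −4.69 on 11, −3.91 on 14 and −3.71 on 3. Over 555 windows of 5 Mb with at least 20 merged regions, Spearman's rho between the share of BT474R-only regions and that median difference was 0.70, as a description of windows that come from the same libraries. On chromosome 4, the window from 160 to 165 Mb held 13 BT474-only and 0 BT474R-only among 28 regions. Copy number was not measured here, and its part in these differences was not tested.

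**Figure D3:**
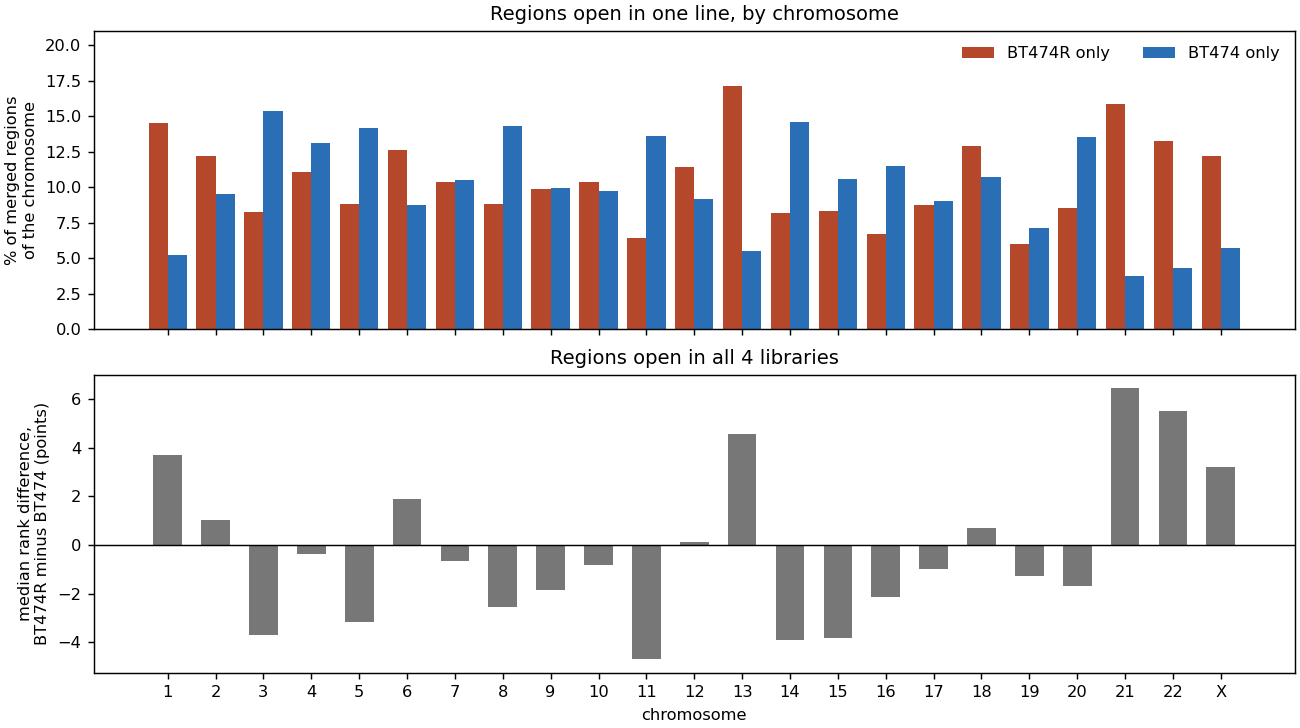
Top, BT474R-only and BT474-only regions as a percentage of each chromosome's merged regions; bottom, the median over regions open in all 4 libraries of the rank percentile in BT474R minus that in BT474. Chromosomes 1, 13, 21, 22 and X have more BT474R-only than BT474-only regions and positive bars below, whereas 3, 5, 8, 11 and 14 have the opposite.

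Motif content outside promoters differed between the sets. The TEAD motif (CATTCC) was present within 100 bp of the summit in 19.2% of 4915 BT474-only and 12.2% of 5643 BT474R-only regions, against 15.2% of all 40708 merged regions outside promoters. The AP-1 motif (TGANTCA) was in 17.3% and 13.1% (16.0% of all), and the GATA motif (AGATAAG) in 4.11% and 2.71% (2.92% of all). The CTCF motif, which marks sites bound by that insulator protein, was in 2.93% of BT474-only but 0.532% of BT474R-only regions, against 3.12% of all. Matches of the estrogen response element were few, at 9 of the BT474-only and 0 of the BT474R-only regions. The opposite order held for the CEBP motif (TTGCNNAA), in 16.8% of BT474R-only and 11.4% of BT474-only regions (13.4% of all), the TFAP2 motif (GCCNNNGGC), in 15.8% and 11.2% (14.7% of all), the FOX motif (TGTTTAC), in 12.3% and 9.46% (11.0% of all), and the palindrome of androgen and glucocorticoid receptors (ACANNNTGT), in 9.80% and 6.92% (7.94% of all). In promoters the KLF/SP motif (GGGCGGG) was in 6.83% of BT474R-only and 18.9% of BT474-only regions, against 32.6% of all promoter regions. GC content moved with the sets as well, since its median in these windows outside promoters was 46.8% for BT474R-only, 47.3% for BT474-only and 48.8% for all regions. These shares are descriptions, and a match is not a bound site.

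The difference between the lines was present in the 36 libraries that did not choose the members. The share of BT474R-only regions that were open ranged from 33.8% to 96.8% (median 77.7%) over 18 BT474R libraries and from 6.42% to 31.4% (median 13.9%) over 18 BT474 libraries. The lines did not overlap, and the means differed by 58.4 points (75.1% ± 17.4 against 16.6% ± 8.58, SD, n = 18 per line). The share of BT474-only regions that were open ranged from 76.3% to 92.2% (median 88.3%) in BT474 and from 0.0473% to 20.7% (median 6.63%) in BT474R, a difference of −78.4 points. Both differences gave a two-sided permutation p of 1e-05 within conditions, the smallest that 100000 resamples can give, and the same value after Benjamini-Hochberg adjustment over the 2 sets. With 2 replicates per condition whose independence the labels do not state, p-values measure the spread between these libraries. In BT474R the shares were lower in shorter lists, as in the controls. Those at 12 h, with 36405 peaks on average, held 33.8% and 62.9% of the BT474R-only regions, and those at 1 h, with 55375 peaks, held 96.8% and 95.1%.

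Region by region, 4600 (71.5%) of the BT474R-only regions were open more often in later BT474R than BT474 libraries, against 10.3% of all merged regions. Of the BT474-only regions 5822 (91.8%) were open more often in BT474, against 18.6% of all (Fisher's exact test, 18 against 18 libraries, Benjamini-Hochberg over 61888 regions). In the opposite direction were 13 BT474R-only and 0 BT474-only regions. Calls also leaned to BT474 among regions open in all 4 baseline libraries, with 1240 for BT474 and 115 for BT474R. Later BT474R lists were shorter, at 45199 to 49425 peaks on average by treatment, against 50008 to 53680 in BT474. The part of list length in the contrast between the 2 sets was not tested. A complete split, 18 of 18 against 0 of 18, was found for 704 BT474R-only and 1844 BT474-only regions, while 3244 (50.4%) of the BT474R-only regions had no peak in any later BT474 library and 3944 (62.2%) of the BT474-only regions had none in any later BT474R library. With the 6 control libraries per line alone, 1396 and 3371 regions passed, in a test with fewer libraries and less power.

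**Figure D4:**
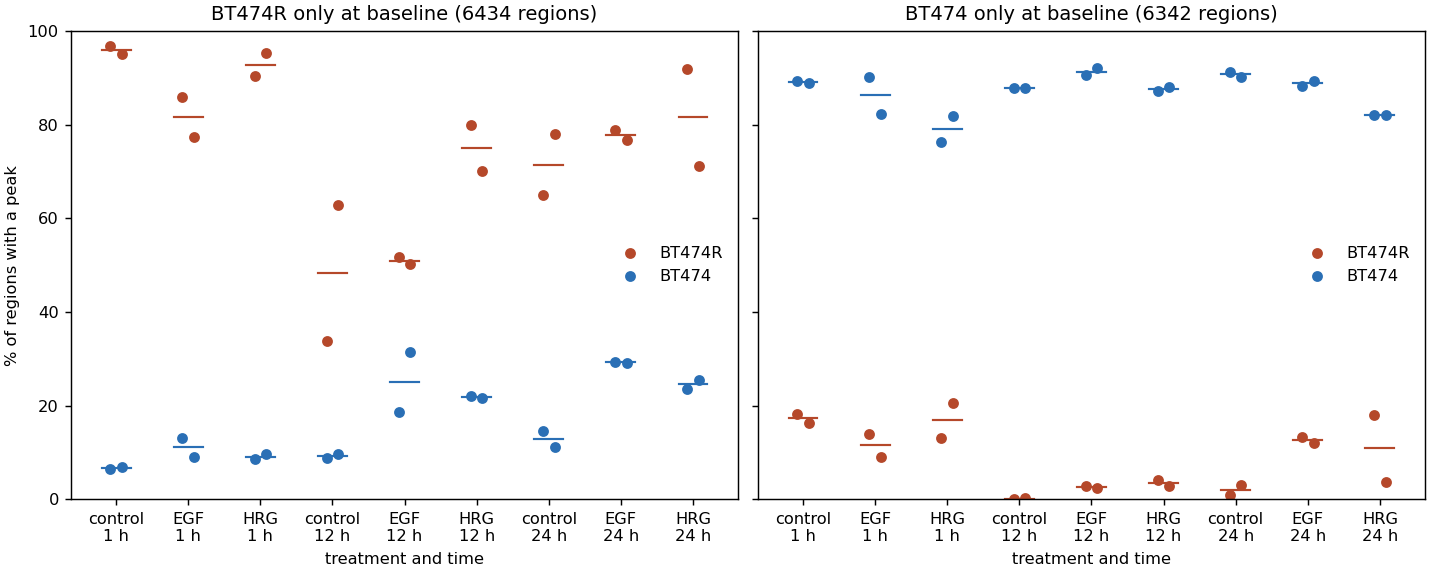
Percentage of the 6434 BT474R-only regions (left) and the 6342 BT474-only regions (right) with a peak in each later library, by treatment and time; points are libraries, bars the mean of 2. The lines do not overlap in either panel, and BT474 libraries treated with EGF or HRG for 12 or 24 h hold more BT474R-only regions than the controls of the same time.

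After EGF or HRG, more of the BT474R-only regions were open in BT474. The same held for regions just outside the rule, open in 1 of 2 BT474R and 0 of 2 BT474 baseline libraries. Their mean share was 7.51% in BT474 controls, 14.3% with EGF and 12.4% with HRG. Of the BT474R-only regions, control BT474 libraries held 9.59% ± 3.07 (SD, n = 6), EGF libraries 21.8% ± 9.48 and HRG libraries 18.5% ± 7.41. At 24 h the controls held 14.7% and 11.2%, the EGF libraries 29.2% and 29.3%, and the HRG libraries 23.6% and 25.6%. At each of the 3 times both ligand libraries lay above both controls. The differences from control were 12.2 points for EGF and 8.94 points for HRG, each with an adjusted p of 0.037 (exact permutation test within time points, two-sided, Benjamini-Hochberg over 8 tests, with controls shared by the ligands). Each call was lost in 4 of 12 omissions of a single library, without either control at 1 h or either of the ligand's own libraries at 24 h (adjusted p = 0.074 to 0.099, exact permutation). The BT474 lists were also longer after ligand, by 3673 peaks on average with EGF and 1461 with HRG. With an equal number of top-ranked peaks taken from every list, the members were chosen again from the shortened lists. In that other set of regions the differences were 6.31 and 7.05 points (adjusted p = 0.011 for both, exact permutation). In BT474R the BT474R-only regions of the full lists differed from control by −1.76 points with EGF and 11.2 points with HRG (adjusted p = 0.85 and 0.28, exact permutation). With equal numbers of peaks, and members chosen again, the differences in BT474R were −8.88 and −1.41 points (adjusted p = 0.011 and 0.19, exact permutation).

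For the BT474-only regions no ligand difference passed the test. In BT474 the share was 89.2% ± 1.41 in controls, 88.8% ± 3.40 with EGF and 83.0% ± 4.31 with HRG (SD, n = 6), and the HRG difference of −6.25 points had an adjusted p of 0.074 (exact permutation). In BT474R it was 6.48% ± 8.46 in controls, 8.96% ± 5.18 with EGF and 10.4% ± 7.91 with HRG. With equal numbers of peaks the members were chosen again from the shortened lists, and all 4 differences of that set passed. They were −7.67 points for EGF and −9.66 for HRG in BT474, and 3.50 and 2.16 in BT474R (adjusted p = 0.011 each, exact permutation).

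The ligand difference was larger at regions with an AP-1 match. Among the 841 BT474R-only regions with the motif, 9.71% ± 2.05 were open in BT474 controls, 37.7% ± 11.2 with EGF and 36.5% ± 10.2 with HRG (SD, n = 6). Among the 5593 without it, the values were 9.57% ± 3.31, 19.4% ± 9.23 and 15.8% ± 7.0. At 1 h the regions with the motif were open at 9.04% and 9.39% in the BT474 controls, 27.9% and 23.1% with EGF, and 21.9% and 25.2% with HRG. The ligand difference was thus 18.1 points larger with the motif than without it for EGF and 20.5 for HRG, while the same contrast ran from −6.59 to 2.36 and from −6.57 to 2.00 for the 11 other motifs found in at least 100 of these regions. A difference in the same direction was measured at BT474-only regions in BT474R, of which 9.10% ± 11.1 of the 1011 with the motif were open in controls and 26.8% ± 12.2 with EGF, against 5.98% ± 7.97 and 5.58% ± 4.04 of the 5331 without it. The contrast was also positive in the line that held the regions at baseline. It was 14.6 points for EGF and 6.06 for HRG at BT474R-only regions in BT474R, and 9.03 and 13.7 at BT474-only regions in BT474. The comparison of motifs was chosen after the values were seen and is given without a test.

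**Figure D5:**
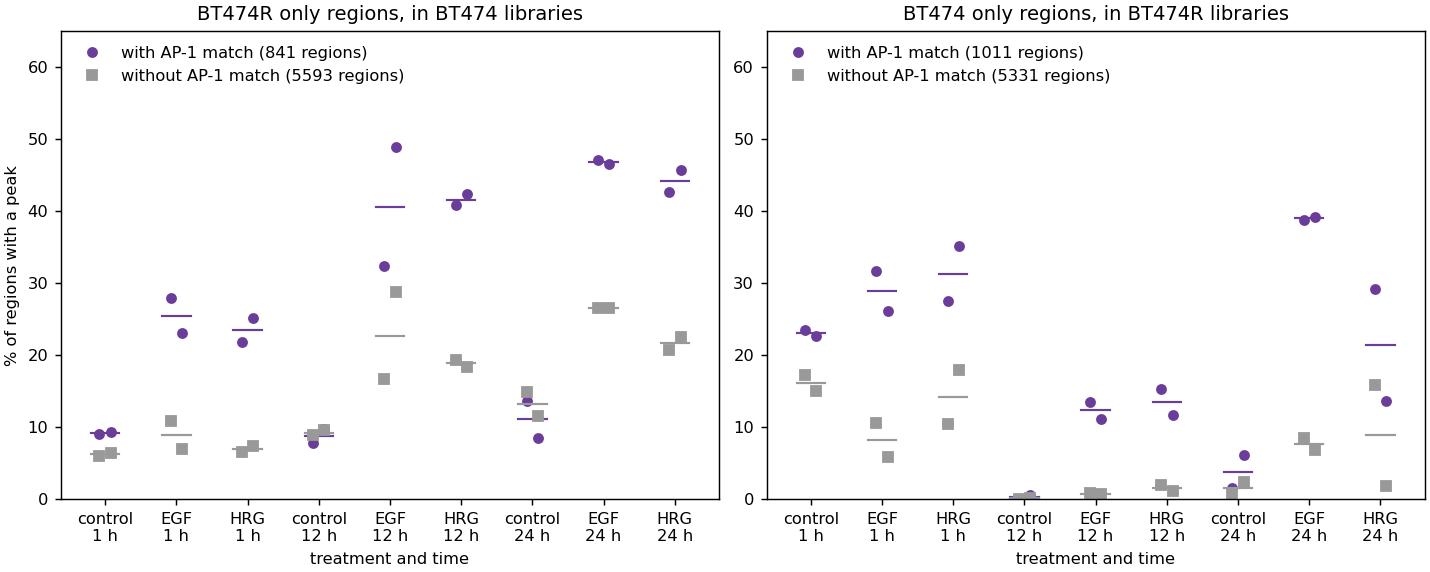
Percentage of regions with a peak in each library of the line in which they had none at baseline, for regions with (circles) and without (squares) an AP-1 match within 100 bp of the summit, by treatment and time; points are libraries, bars the mean of 2. After EGF or HRG the mean of the circles lies above that of the squares at each time in both panels, whereas in BT474 controls at 12 and 24 h they lie together.

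The 34027 regions open in all 4 libraries are described by their ranks, without a test and in lists of unequal length. Both BT474R ranks exceeded both BT474 ranks by 20 points or more in 2208 regions (6.49%), and the reverse held in 1273 (3.74%). An intronic region of IMPG1 ranked at 89.8 and 91.7 in BT474R and at 8.09 and 13.9 in BT474. A region 15.6 kb from TFF3, a secreted trefoil factor, ranked at 83.4 and 89.1 in BT474R and at 8.27 and 10.1 in BT474. The reverse was seen in a region 26.6 kb from CYP4F8, at 12.5 and 0.954 in BT474R and 87.6 and 87.2 in BT474. The CYP4F8 region was open in 18 of 18 later BT474 and 4 of 18 BT474R libraries (Fisher's exact test, adjusted p = 1.3e-05).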

How the data were processed

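Omni-ATAC libraries of BT474 and BT474R cells were sequenced by the authors, 40 in all with 2 in each of 20 groups. Per the paper and the labels, reads were trimmed with Trim Galore 0.6.6, aligned with BBMap to GRCh38.p13 and passed to Genrich, which left out mitochondrial reads and blacklisted regions and called peaks for each library on its own; its options are not stated in the sources at hand. The deposited peak lists give a signal per peak (the area under the curve, 200 or more in every list) and −log10 p and q columns, and the deposited −log10 values were not used. Read totals are not in these lists, so depth is unknown and no interval can be given; the number of peaks, 32479 to 56846 in the later lists, stands in for it. A call of no peak is not proof of closed chromatin. The authors' own differential tests on reads were not repeated.

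From the lists, peaks of the 4 baseline libraries were merged and annotated with GENCODE release 44; a promoter is within 1 kb of any transcript start, and a gene is assigned by the nearest protein-coding start within 100 kb. Presence in the 36 later libraries was tested by permutation within the 9 conditions, by Fisher's exact test per region and by exact permutation of ligand against control, with a threshold of 0.05 after Benjamini-Hochberg adjustment. The per-region test was checked on simulated presence calls, drawn without differences in list length between libraries. It recovered 100 of 100 regions given a strong difference between lines and 37 of 100 given a weaker one. Named regions were the 10 highest-ranked members per direction, members of 388 genes in 21 pathway lists (those at promoters and up to 4 further genes per list), the 10 genes with most members, the 3 longest runs, and the 5 regions open in all 4 lists with the largest rank gap per direction. The members, lists and tests were chosen with earlier results of these data known. Some regions that the rule names are not reported here. The alternatives tried were leaving out peaks scored under 400, taking the top 32479 peaks of each list, peaks trimmed to 400 bp, at least 50% of a region covered, leaving out libraries, and paired tests. Each change to the peaks, to coverage or to the baseline libraries also chose the members again, while the named regions stayed those of the full lists. Tests used scipy 1.17.1 on tables held in pandas 2.3.3, sequences were read with pysam 0.24.0, and matplotlib 3.10.9 drew the plots.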

Additional observations from a re-analysis of the deposited data

Results flagged for a closer look

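The difference that HRG made to the BT474-only regions was not the same in the 2 lines. Relative to control, HRG libraries held 3.95 points more of these regions in BT474R and 6.25 points fewer (−6.25) in BT474, so that the lines differed by 10.2 points (exact permutation test of the difference over 46656 arrangements, two-sided p = 0.0047, adjusted p = 0.019 over 4 tests). Control libraries held 89.2% of these regions in BT474 and 6.48% in BT474R, so the room to rise or fall was unequal. Neither line's own HRG difference passed (adjusted p = 0.074 in BT474 and 0.28 in BT474R, exact permutation). HRG lists were longer than control lists by 4226 peaks on average in BT474R and 1461 in BT474. The part of list length and of these starting shares was not tested. The corresponding test between lines for EGF gave 2.89 points (adjusted p = 0.44, exact permutation). For the BT474R-only regions the differences between lines were −14.0 points for EGF and 2.28 points for HRG (adjusted p = 0.11 and 0.82, exact permutation). None of the 12 groups of 6 libraries held a share that stood apart from the rest of its group by Dixon's test.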

How the results depend on the processing

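The line differences in the later libraries kept their direction and side of the threshold under every alternative run, at 43.7 to 57.4 points for BT474R-only and −77.8 to −63.4 points for BT474-only regions when a baseline library was left out. Leaving out a baseline library gave 6798 to 11098 BT474R-only and 6509 to 10922 BT474-only regions, promoter shares of 12.3% to 15.4% and 22.2% to 31.7%, and 4669 to 5875 and 5946 to 8287 regions separated later. A peak score of at least 400 gave 3363 BT474R-only regions, of which 2422 were separated later, and promoter shares of 14.9% and 27.0%. Equal numbers of peaks, with members chosen again, gave promoter shares of 15.2% and 29.2% and 3772 separated BT474-only regions. Of the ligand differences, 5 moved past the threshold (−8.88 for EGF at BT474R-only regions in BT474R, −7.67 and −9.66 for EGF and HRG at BT474-only regions in BT474, and 3.50 and 2.16 in BT474R). Trimmed peaks gave promoter shares of 14.9% and 24.2% and an HRG difference of −6.17 points at BT474-only regions in BT474 (adjusted p = 0.049, exact permutation), 50% coverage a share of 24.4% for BT474-only regions, and a 3 kb promoter shares of 27.0% and 35.3%. Control libraries alone separated 1396 and 3371 regions. That test compares 6 libraries per line and has less power than the test of 18 per line, so the counts are not comparable. The cause of the other changes was not tested. Leaving out 1 later library, the EGF and HRG differences at BT474R-only regions in BT474 ran from 10.3 to 14.8 and from 7.53 to 10.9 points, and each lost its call without either BT474 control at 1 h or either of its own libraries at 24 h, with 4 of 12 omissions each. For BT474-only regions in BT474 the HRG difference ran from −7.29 to −4.92 and passed without HRG 12 h replicate 2. The 5 other ligand differences passed under no such omission, and those of EGF at BT474R-only regions in BT474R (−9.39 to 3.21) and at BT474-only regions in BT474 (−1.07 to 0.886) changed sign.

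Same-numbered replicates of the 2 lines did not deviate together, with correlations between −0.0088 and 0.067 over 10 conditions. With 2 replicates per line and condition, these values cannot exclude that the numbers pair the libraries. Pairing of ligand and control libraries within a line was not checked. With a replicate block the line differences kept their calls. The ligand differences in BT474 of 12.2 and 8.94 points had an adjusted p of 0.12 (exact permutation over 6 pairs). Both ligand differences already had the smallest unadjusted p that 6 pairs can give, so the paired test cannot decide whether they hold. Of 167 named regions, 43 lost and 14 gained a call with equal numbers of peaks, and 45 and 13 with a score of at least 400. With controls alone, a test of fewer libraries and less power, 65 lost it.

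Depth is unknown, BT474R is 1 clone, and presence of a peak does not measure the size of a signal difference.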

Other observations

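Other gene groups held members in both directions. KRT7, a keratin of simple epithelia, had 2 BT474R-only promoter regions, ranked at 85.4 and 62.2 (chr12:52237394-52239362) and at 57.7 and 42.6 in the BT474R replicates. The first was open in 18 of 18 later BT474R and 0 of 18 BT474 libraries, and the second in 18 and 6. ITGB5, an integrin subunit, had 7 BT474-only and 2 BT474R-only regions. NDRG1, a gene induced by hypoxia and by androgens, had a BT474R-only promoter region at ranks of 42.8 and 15.7 that was open later in 18 and 0 libraries.

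Genes of drug efflux and detoxification had 6 BT474-only and 2 BT474R-only regions among 65 (9.23% and 3.08%, against 10.2% and 10.4% of all merged regions), and 4 of the 6 lay at promoters. A promoter region of ALDH1A3, a retinaldehyde dehydrogenase gene, ranked at 66.2 and 62.1 in BT474. It was open in 18 of 18 later BT474 and 0 of 18 BT474R libraries. Among mitochondrial biogenesis genes, a region 1.77 kb from PPARGC1B, a coactivator of oxidative metabolism, ranked at 66.2 and 63.6 in BT474 with the same split. CPT1A, the carnitine palmitoyltransferase of fatty acid import, had 2 members in each direction, and its intronic BT474R-only region, at a mean rank of 87.3, was open later in 18 BT474R and 8 BT474 libraries (Fisher's exact test, adjusted p = 0.0017).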
